A study of Mus musculus with 6 samples.

Results

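Serpina3n and 7 genes of gp130 cytokine signalling, Osmr, Il6st, Lifr, Il6ra, Socs3, Stat3 and Lcn2, were followed through 6 libraries of mouse heart RNA. The set was chosen by the CPM of Serpina3n in these libraries, where earlier results had shown it to change, together with receptor, signalling and target genes of the pathway. All 8 were found among the 29385 genes of the tables and among the 16804 genes that passed the filter on low counts. Each group had 2 libraries. The first group was Myh6 RH/+ given vehicle, the second Myh6 RH/RQ given vehicle, and the last Myh6 RH/RQ given AAV-hpCas13d, an adeno-associated virus that carries a form of the RNA-cutting enzyme Cas13d. All 6 libraries therefore came from hearts with the RH allele of Myh6, the gene of the alpha myosin heavy chain, and there was no wild-type group. The labels name the RH and RQ alleles without spelling them out, and place sampling 12 months after administration to newborns. They do not tie a library to an animal. The 2 library names of a group differ only in the first digit, and whether both stand for the same animal is not given. Each p-value therefore measures the spread between libraries, which may be partly or wholly technical.

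gp130, encoded by Il6st, is the signal-transducing receptor chain shared by interleukin 6, leukaemia inhibitory factor, oncostatin M, cardiotrophin 1 and related cytokines. Each cytokine binds a partner chain such as Il6ra, Lifr or Osmr, and Janus kinases bound to the receptor then phosphorylate STAT3, which enters the nucleus and switches on target genes that include its own inhibitor Socs3. In the heart the pathway is known for protecting cardiomyocytes under acute stress and for acute-phase and remodelling responses when it stays active. Serpina3n encodes a secreted inhibitor of serine proteases, the mouse counterpart of human alpha-1-antichymotrypsin, and is widely used as a marker of acute-phase and injury responses.

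Levels are given as CPM, counts per 1e+06 reads assigned to genes, from libraries of 36269261 to 51017058 reads. Where a gene had no read, 3 counts set an upper limit of 0.0588 to 0.0827 CPM, for counting error only. Both RH/RQ vehicle libraries had Xist at 0.274 CPM or less and the Y-linked gene Ddx3y at 85.2 CPM, whereas the other 4 libraries had Xist at 265 CPM or more and Ddx3y at 0. The 2 comparisons that use the RH/RQ vehicle group therefore cannot be told apart from a difference in sex. The comparison of treated RH/RQ with RH/+ hearts is free of it, but its groups differ in both genotype and treatment. No group was given a virus without hpCas13d. Genotype, virus and hpCas13d therefore cannot be told apart in that comparison. The 9 cardiomyocyte markers summed to 58916 to 63272 CPM in RH/+, 53160 to 55869 in RH/RQ vehicle and 57198 to 57666 in treated hearts. The groups did not overlap, and 0 of the 9 were called in any comparison. The 9 fibroblast markers summed to 1018 to 1097 CPM in RH/+, 1693 to 1811 in RH/RQ vehicle and 1445 to 1698 in treated hearts. The 10 macrophage markers summed to 209 to 215, 276 to 280 and 229 to 268 CPM in the same order. Of the fibroblast markers 6 rose in RH/RQ vehicle and 6 in treated hearts against RH/+, and 3 fell with treatment, while 4 macrophage markers rose in RH/RQ vehicle hearts and 0 passed in the other comparisons. In whole hearts a change in the number of cells of a type and a change in RNA per cell cannot be told apart.

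The promoter windows of Serpina3n and of Socs3, the pathway's own inhibitor, are shown, though STAT3 binding was not measured. They are the 250 bases before the RefSeq start on GRCm38.p6, read 5′ to 3′ along the gene's strand, in lower case, with any match to the STAT motif TTCNNNGAA in capitals. The motif is its own reverse complement, so one search covers both strands. The Serpina3n window lies at chr12:104406458-104406707 on the plus strand, and the Socs3 window at chr11:117969367-117969616 on the minus strand.
Serpina3n: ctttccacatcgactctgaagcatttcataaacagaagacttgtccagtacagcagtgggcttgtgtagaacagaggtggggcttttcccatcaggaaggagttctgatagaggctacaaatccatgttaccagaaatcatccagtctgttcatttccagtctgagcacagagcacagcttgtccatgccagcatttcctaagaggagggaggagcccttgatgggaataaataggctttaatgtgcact
Socs3: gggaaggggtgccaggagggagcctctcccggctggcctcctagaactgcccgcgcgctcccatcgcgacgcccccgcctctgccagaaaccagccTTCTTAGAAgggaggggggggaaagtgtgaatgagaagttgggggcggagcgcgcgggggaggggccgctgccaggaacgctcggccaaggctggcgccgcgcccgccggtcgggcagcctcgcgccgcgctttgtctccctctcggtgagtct
The Socs3 window held 1 match, 154 bases before the RefSeq start, and the Serpina3n window held 0. RefSeq windows were found for 8 of 8 genes, and those of the other 6 genes held 0 matches. Over the genome, 7.02% of 32851 windows held at least 1 match, so a match is common by itself, and its absence says only that these letters do not occur in this window. GENCODE places the start of Socs3 681 bases farther upstream than RefSeq does. For Osmr the distance is 656 bases, for Lcn2 513, and for the Lifr windows 38958 and 49928, also upstream. By GENCODE the windows of these genes therefore lie inside the gene.

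Serpina3n, a gene on chromosome 12 (GRCm38, 104406729 to 104414329, plus strand; ENSMUSG00000021091.8), was lowest in RH/+ hearts, highest in RH/RQ vehicle hearts and intermediate in treated hearts. Its level was 7.27 and 8.94 CPM in RH/+ hearts, against 35.1 and 40.0 CPM in RH/RQ vehicle hearts and 16.6 and 18.9 CPM in treated hearts. No library of one group overlapped with a library of another. The group means were 8.11 ± 1.18, 37.6 ± 3.48 and 17.7 ± 1.57 CPM (SD, n = 2), a ratio of 4.63 for RH/RQ vehicle over RH/+, of 0.472 for treated over RH/RQ vehicle and of 2.19 for treated over RH/+. On the log2(CPM + 1) scale these differences were 2.09 (SE 0.13), -1.04 (SE 0.13) and 1.04 (SE 0.13). The difference between RH/RQ vehicle and treated hearts covered 67.3% of the gap between the vehicle groups in CPM and 49.9% of it on the log2 scale. Both shares use the RH/RQ vehicle group, so neither can be told apart from the difference in sex. By the rise in RH/RQ vehicle hearts Serpina3n had rank 10 of the 16804 genes. Since the gene was picked for this pattern, these values describe it and nothing is read from its test. Leaving out each library in turn kept the differences between 1.95 and 2.22, between -1.13 and -0.95, and between 0.91 and 1.18. In the authors' deposited table the log2 fold changes were 2.16, -1.14 and 1.02. The summed macrophage markers were also highest in the RH/RQ vehicle libraries, where the summed cardiomyocyte markers were lowest. The summed fibroblast markers were higher in both RH/RQ groups, which overlapped, than in RH/+. Col1a1, Col1a2 and Col3a1, named after their values were seen, were the 3 fibroblast markers called lower in treated than in RH/RQ vehicle hearts. The other 6 had log2 differences above 0, with 0 called. Col1a1 had group means of 38.9, 127 and 55.9 CPM in RH/+, RH/RQ vehicle and treated hearts. In the same order Col1a2 had 81.7, 178 and 103 CPM, and Col3a1 92.1, 227 and 102 CPM. The part of these markers in the Serpina3n levels was not tested.

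**Figure D1:**
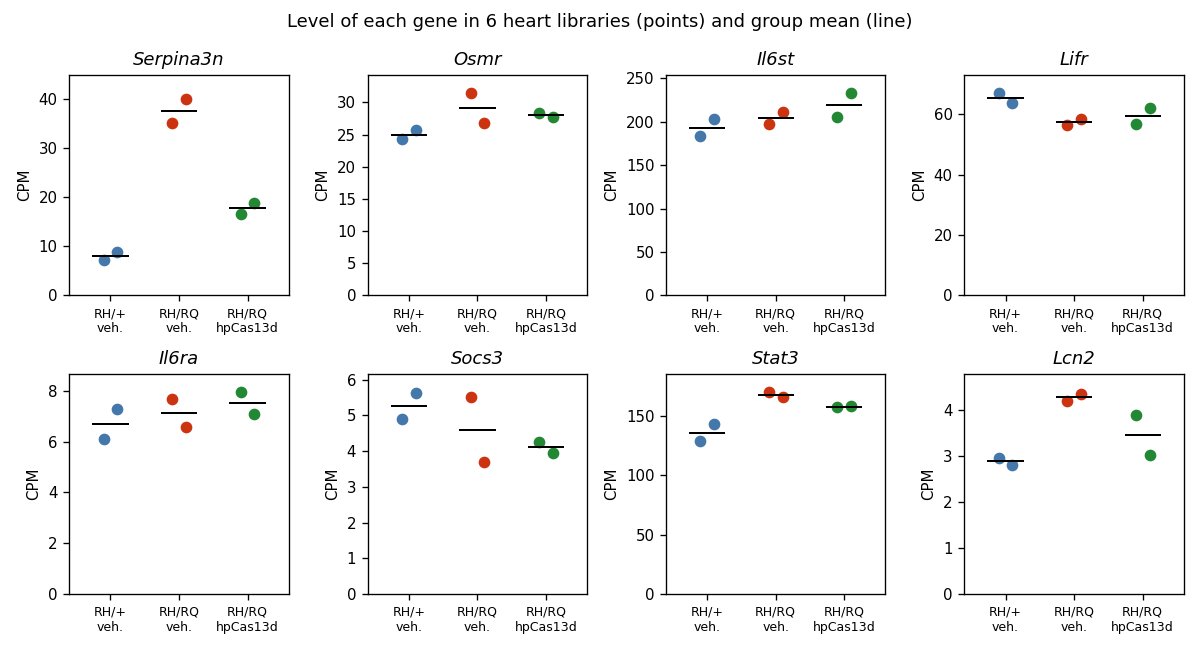
CPM (y axis, from 0) of the 8 genes in the 2 RH/+ vehicle, 2 RH/RQ vehicle and 2 treated RH/RQ libraries; points are libraries and lines are group means. Serpina3n separates the 3 groups at 7.27 to 8.94, 35.1 to 40.0 and 16.6 to 18.9 CPM, while the receptor chains Il6st and Il6ra overlap between the vehicle groups.

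The receptor chains showed no change that passed the test in any of the 3 comparisons. Il6st, the gp130 chain itself (chromosome 13, 112464070 to 112510086, plus strand), was at 183 and 203 CPM in RH/+, 198 and 211 in RH/RQ vehicle and 205 and 233 in treated hearts. The vehicle groups overlapped, and the log2 difference between them was 0.08 with a 95% interval of -0.12 to 0.28 (limma adjusted p = 0.737). Treated hearts lay above RH/+ hearts by 0.18 on the log2 scale (interval -0.02 to 0.38, adjusted p = 0.396) and differed from RH/RQ vehicle hearts by 0.10 (adjusted p = 0.748).

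Osmr, the oncostatin M receptor chain (chromosome 15, 6813577 to 6874969, minus strand), was at 24.3 and 25.7 CPM in RH/+, 31.4 and 26.9 in RH/RQ vehicle and 28.4 and 27.7 in treated hearts. Both RH/RQ groups lay above RH/+ without overlap, by 0.21 (interval -0.03 to 0.45, adjusted p = 0.369) and 0.16 (interval -0.08 to 0.40, adjusted p = 0.543) on the log2 scale, and overlapped with each other (-0.05, adjusted p = 0.917). Lifr, the leukaemia inhibitory factor receptor chain (chromosome 15, 7090614 to 7197489, plus strand), ran the other way, at 67.2 and 63.9 CPM in RH/+, 56.5 and 58.4 in RH/RQ vehicle and 56.8 and 62.0 in treated hearts. It was the only one of the 4 receptor chains whose mean was lower in both RH/RQ groups than in RH/+, by -0.19 (interval -0.39 to 0.01, adjusted p = 0.336) and -0.14 (interval -0.34 to 0.06, adjusted p = 0.530), and treated and vehicle RH/RQ hearts differed by 0.05 (adjusted p = 0.904). Il6ra, the interleukin 6 binding chain (chromosome 3, 89864059 to 89913196, minus strand), was at 6.12 and 7.27 CPM in RH/+, 7.68 and 6.57 in RH/RQ vehicle and 7.94 and 7.09 in treated hearts. All 3 groups of Il6ra overlapped, with log2 differences of 0.08, 0.07 and 0.15 (adjusted p = 0.867, 0.916 and 0.721). An annotated antisense gene overlaps Il6ra by 281 bases, and without a stated strand setting its reads would not be separable from those of Il6ra.

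Of the 6 other receptor and kinase genes listed, Il11ra1, Cntfr, Il27ra, Jak1, Jak2 and Tyk2, 0 passed in any comparison. Under an unadjusted limma p of 0.05 were 1, 0 and 1, in the order RH/RQ vehicle against RH/+, treated against RH/RQ vehicle, and treated against RH/+. Of all 16804 genes tested, 2868, 2096 and 2544 were under it in the same order. Jak1, the kinase most tied to gp130, was at 147 to 165 CPM over all 6 libraries.

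Stat3, the main transcription factor of the pathway (chromosome 11, 100885098 to 100939540, minus strand), stood at 129 and 143 CPM in RH/+, 170 and 166 in RH/RQ vehicle and 157 and 159 in treated hearts. The groups did not overlap and had the same order as Serpina3n, but with a range of 129 to 170 CPM. RH/RQ vehicle hearts were above RH/+ by 0.30 on the log2 scale (SE 0.09, interval 0.11 to 0.49), which missed the threshold at a limma adjusted p of 0.0584. The difference passed under 5 of 17 alternatives: with CPM over nuclear genes alone (0.34, adjusted p = 0.0254), with only the 4 libraries compared (adjusted p = 0.0280), with the replicate block (adjusted p = 0.0244), and without treated replicate 1 (adjusted p = 0.0246) or replicate 2 (adjusted p = 0.0250). Treated hearts differed from RH/RQ vehicle by -0.09 (interval -0.28 to 0.10, adjusted p = 0.764) and from RH/+ by 0.22 (interval 0.03 to 0.40, adjusted p = 0.253). Stat3 shares 72 bases with Stat5a on the opposite strand, a gene at 20.7 to 24.5 CPM. Of the 5 other STAT genes listed, 0 passed in any comparison. Under an unadjusted limma p of 0.05 were 1, 0 and 0, beside 2868, 2096 and 2544 of all 16804 genes tested.

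Socs3, the feedback inhibitor that binds gp130 and the Janus kinases (chromosome 11, 117966079 to 117970047, minus strand), was at 4.88 and 5.61 CPM in RH/+, 5.51 and 3.69 in RH/RQ vehicle and 4.25 and 3.95 in treated hearts. The 2 RH/RQ vehicle libraries spanned nearly the whole range of Socs3. Its log2 differences were -0.18 between the vehicle groups (interval -0.56 to 0.21, adjusted p = 0.693), -0.12 for treated against RH/RQ vehicle (interval -0.50 to 0.27, adjusted p = 0.860) and -0.29 for treated against RH/+ (interval -0.67 to 0.09, adjusted p = 0.487). The sign of the first turned to 0.06 without RH/RQ vehicle replicate 2 and that of the second to 0.12 without RH/RQ vehicle replicate 1.

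The 8 other inhibitors listed were Socs1, Socs2, Cish, Pias1, Pias3, Ptpn2, Ptpn6 and Ptpn11. Cish, a SOCS family gene best known as a STAT5 target, was the only one to pass, in 1 comparison. It was at 42.5 and 43.8 CPM in RH/+, 33.9 and 31.3 in RH/RQ vehicle and 47.8 and 38.1 in treated hearts. Cish fell by 0.40 on the log2 scale in RH/RQ vehicle against RH/+ hearts (SE 0.11, limma adjusted p = 0.0440), and the treated hearts were at 0.38 against RH/RQ vehicle (adjusted p = 0.0957), which passed with the replicate block (adjusted p = 0.0394) and without treated replicate 2 (0.54, adjusted p = 0.0109). The call between the vehicle groups was lost with each of the 4 libraries compared left out in turn, with adjusted p between 0.0920 and 0.277. It was also lost with a pseudocount of 5 (adjusted p = 0.0608).

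Lcn2, which encodes the iron-scavenging protein lipocalin 2 and is a target of the pathway (chromosome 2, 32384633 to 32388252, minus strand), was at 2.97 and 2.81 CPM in RH/+, 4.20 and 4.36 in RH/RQ vehicle and 3.89 and 3.03 in treated hearts. The groups did not overlap and had the order of Serpina3n, although the treated libraries differed from each other by more than the gap between treated and RH/+ hearts. The difference between the vehicle groups was 0.44 on the log2 scale (interval 0.07 to 0.81, adjusted p = 0.180). The treated hearts differed by -0.25 from RH/RQ vehicle (interval -0.62 to 0.12, adjusted p = 0.613) and by 0.19 from RH/+ (interval -0.17 to 0.56, adjusted p = 0.661). Lcn2 is abundant in neutrophils. The summed neutrophil markers, 9 of 12 found, were at 7.77 to 10.2 CPM in RH/+, 5.80 to 7.41 CPM in RH/RQ vehicle and 11.6 to 15.8 CPM in treated hearts. The part of neutrophils in the Lcn2 levels was not tested. Ly6g, Elane and Mpo were not found, and 0 of the 9 found were at 0 in a whole group. Of those found, Ngp had 0 to 2 reads per library, Camp 0 to 4, Ltf 0 to 2 and Mmp8 1 to 7.

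In each comparison 1 of the 8 genes was called at an adjusted p under 0.05, namely Serpina3n. Nothing is read from these calls, because the gene was chosen by the same contrasts. The background was 4.99% of genes called for RH/RQ vehicle against RH/+, 2.05% for treated against RH/RQ vehicle and 2.86% for treated against RH/+. Libraries of the 2 groups did not overlap for 5 of 8 genes in the first comparison, where 49.3% of all genes did not overlap, with 4 higher (30.8% of all genes) and 1 lower (18.5%). They did not overlap for 3 of 8 in the second, beside 40.5%, with 0 higher (26.2% of all genes) and 3 lower (14.4%). In the last they did not overlap for 7 of 8, beside 44.7%, with 5 higher (35%) and 2 lower (9.66%). The median log2 difference of the 8 genes was 0.15, -0.07 and 0.17, beside 0.04, 0.04 and 0.08 over all genes tested. Apart from Serpina3n, the largest of these differences in size was 0.44, that of Lcn2 in the first comparison.

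**Figure D2:**
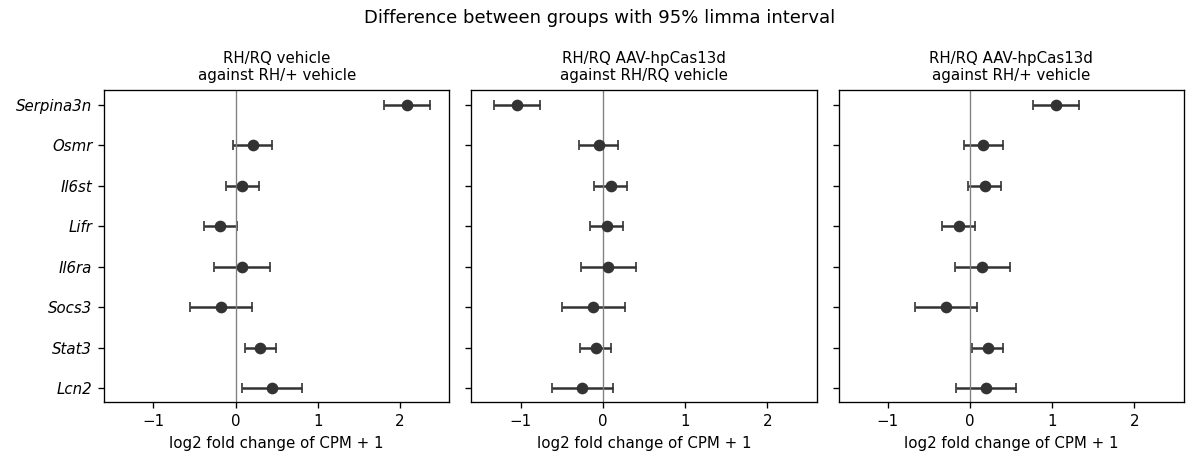
Log2 fold change of CPM + 1 (x axis) for the 8 genes in the 3 comparisons; points are limma estimates and bars 95% intervals. Serpina3n lies at 2.09, -1.04 and 1.04, and the other 7 genes lie between -0.29 and 0.44.

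Set against exon length, the genes fell into a broad range. Mean levels over the 6 libraries were 18.5 CPM per kb for Il6st, 16.2 for Stat3, 10.2 for Serpina3n, 5.64 for Lifr, 2.26 for Osmr, 1.61 for Socs3, 1.35 for Lcn2 and 0.823 for Il6ra. Serpina3n was the gene whose place moved most. At 3.93 CPM per kb in RH/+ hearts it lay below Lifr at 6.08, in RH/RQ vehicle hearts at 18.2 it lay beside Il6st at 18.4 and Stat3 at 17.6, and in treated hearts at 8.59 it lay between Stat3 at 16.6 and Lifr at 5.51. Il6st, Stat3 and Serpina3n in RH/RQ vehicle hearts did not differ beyond the spread of their 2 libraries, nor did Socs3 and Lcn2.

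**Figure D3:**
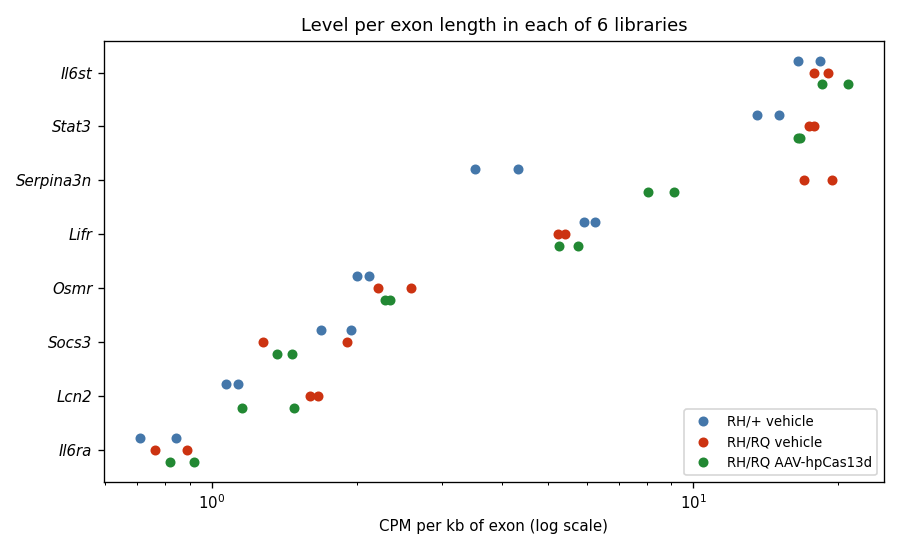
CPM per kb of exon (x axis, log scale) of the 8 genes in each of the 6 libraries, coloured by group. Serpina3n moves from 3.93 in RH/+ to 18.2 in RH/RQ vehicle and 8.59 in treated hearts (group means), and each of the other genes stays within a narrow band.

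Most gp130 cytokines were near the limit of detection. Il6 had 0 to 5 reads per library, Osm 1 to 6, Cntf 1 to 3, Il27 0 to 8 and Il11 1 to 13, too few to be tested at this depth. Of 11 ligand genes 6 were tested. Cardiotrophin 1 (Ctf1) was at 4.36 and 6.19 CPM in RH/+, 7.21 and 5.10 in RH/RQ vehicle and 5.74 and 5.59 in treated hearts, with all groups overlapping. Clcf1, a cytokine that signals through Cntfr, Lifr and gp130, was at 2.0 and 2.05 CPM, 2.74 and 2.89 CPM, and 3.28 and 3.24 CPM in the same order, and did not pass (log2 difference of treated against RH/+ 0.49, adjusted p = 0.148).

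Over all pathway lists, which do not hold the 8 genes above, 60 of 62 genes were found and 50 tested. In RH/RQ vehicle against RH/+ hearts 6 rose and 2 fell, 16% of those tested beside 4.99% of all genes. In treated against RH/RQ vehicle hearts 5 rose and 5 fell, 20% beside 2.05%, and in treated against RH/+ hearts 7 rose and 1 fell, 16% beside 2.86%. The median log2 difference over the 50 genes was 0.12, -0.03 and 0.11. The calls came mostly from the other target genes, where of 25 tested 5 rose and 1 fell, 5 rose and 4 fell, and 6 rose and 1 fell. The lists were chosen with earlier results known, so these shares are a description. Without the filter on low counts 0 of the pathway genes were called in each comparison, when only 57, 15 and 7 genes of the whole table were called. The count fell to 4 in the first comparison without RH/RQ vehicle replicate 2. It fell to 4 without RH/RQ vehicle replicate 2 and to 6 without treated replicate 1 in the second. In the last it fell to 4 without treated replicate 1 and to 5 without RH/+ replicate 1.

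The called target genes are grouped below by their values. A first set was highest in RH/RQ vehicle hearts, as Serpina3n was. Timp1, an inhibitor of matrix metalloproteinases, was at 1.39 and 1.60 CPM in RH/+, 8.68 and 7.81 in RH/RQ vehicle and 4.08 and 2.35 in treated hearts. It rose by 1.89 (SE 0.20, limma adjusted p = 8.89e-07) between the vehicle groups, fell by 1.16 with treatment (SE 0.20, adjusted p = 0.00109) and stayed 0.72 above RH/+ (SE 0.20, adjusted p = 0.0443). The last of these did not pass without treated replicate 1 (0.42, adjusted p = 0.399), without RH/+ replicate 1 (0.66, adjusted p = 0.306) or replicate 2 (0.79, adjusted p = 0.0973), with TMM factors (0.65, adjusted p = 0.0647), with RLE factors (0.65, adjusted p = 0.0644) or with a pseudocount of 5 (0.33, adjusted p = 0.102).

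Fosl2, a subunit of the AP-1 transcription factor, was at 25.8 and 28.6 CPM in RH/+, 43.9 and 43.6 in RH/RQ vehicle and 27.2 and 28.9 in treated hearts. It rose by 0.67 (SE 0.11, adjusted p = 0.000362) and fell by 0.62 (SE 0.11, adjusted p = 0.00162), and treated and RH/+ hearts overlapped. Tnfrsf12a, the receptor of the cytokine TWEAK, was at 56.8 and 58.3 CPM in RH/+, 101 and 103 in RH/RQ vehicle and 84.3 and 62.3 in treated hearts. It rose by 0.81 (SE 0.11, adjusted p = 5.44e-05) and fell by 0.48 (SE 0.11, adjusted p = 0.0219). The fall did not pass without RH/RQ vehicle replicate 1 (adjusted p = 0.0754) or replicate 2 (adjusted p = 0.177), or without treated replicate 2 (-0.27, adjusted p = 0.160). Without treated replicate 2 the treated level was above RH/+ by 0.54 and passed (adjusted p = 0.00287).

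A second set was higher in treated hearts than in either vehicle group. Cebpd, a transcription factor of the acute-phase response, was at 10.4 and 11.3 CPM in RH/+, 12.7 and 11.1 in RH/RQ vehicle and 32.3 and 21.9 in treated hearts. The vehicle groups overlapped (0.12, adjusted p = 0.769), and treated hearts were above RH/RQ vehicle by 1.10 (SE 0.15, limma adjusted p = 0.000122) and above RH/+ by 1.22 (SE 0.15, adjusted p = 3.34e-05). Its partner Cebpb was at 15.5 and 15.9 CPM, 17.5 and 14.9 CPM, and 33.6 and 23.5 CPM, a rise of 0.76 (SE 0.14, adjusted p = 0.00362) and 0.80 (SE 0.14, adjusted p = 0.00184). For both genes the higher value was that of treated replicate 1. Without that library Cebpd still passed, and Cebpb did not against RH/RQ vehicle (0.52, adjusted p = 0.105) or RH/+ (0.55, adjusted p = 0.0633). The Cebpb rise over RH/RQ vehicle did not pass without RH/RQ vehicle replicate 2 either (0.65, adjusted p = 0.0813).

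Bcl6, a transcriptional repressor, was at 24.4 and 19.3 CPM in RH/+, 21.1 and 20.5 in RH/RQ vehicle and 30.2 and 33.1 in treated hearts, a rise of 0.58 over RH/RQ vehicle (SE 0.12, limma adjusted p = 0.0106) and of 0.52 over RH/+ (SE 0.12, adjusted p = 0.0190). The rise over RH/RQ vehicle did not pass without RH/RQ vehicle replicate 2 (0.56, adjusted p = 0.109). The rise over RH/+ did not pass without RH/+ replicate 2 (0.36, adjusted p = 0.335), without treated replicate 2 (0.46, adjusted p = 0.0781), or in edgeR (adjusted p = 0.0641) and DESeq2 (adjusted p = 0.0946). It did not pass with TMM (0.42, adjusted p = 0.0746) or RLE factors (0.42, adjusted p = 0.0784) either. Bcl2l1, whose product Bcl-xL restrains apoptosis, was at 24.5 and 26.0 CPM in RH/+, 29.2 and 29.3 in RH/RQ vehicle and 43.3 and 39.6 in treated hearts. It rose by 0.49 over RH/RQ vehicle (SE 0.11, adjusted p = 0.0152) and by 0.69 over RH/+ (SE 0.11, adjusted p = 0.000428). The former did not pass without RH/RQ vehicle replicate 1 (adjusted p = 0.0793) or replicate 2 (adjusted p = 0.135), or without treated replicate 1 (adjusted p = 0.110). Bcl2l1 against RH/+ passed with each library left out in turn.

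Beside these rises in treated hearts stood 2 other measures. The 4 atrial markers summed to 112 to 144 CPM in RH/+, 113 to 120 CPM in RH/RQ vehicle and 430 to 755 CPM in treated hearts. Nearly all of this was Nppa, the gene of a natriuretic peptide, at 428 and 753 CPM in treated hearts and the only one of the 4 called, while Myl7 and Myl4 lay between 0.0791 and 2.47 CPM in all 6 libraries and Sln was at 0 in both vehicle groups. The neutrophil genes S100a8 and S100a9, named here after their values were seen, rose over RH/RQ vehicle by 0.79 and 1.30 (limma adjusted p = 0.0208 and 0.000522). Neither passed against RH/+ (0.36, adjusted p = 0.360, and 0.65, adjusted p = 0.101). The part of either in the treated values was not tested.

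The remaining called genes took other courses. Lbp, the lipopolysaccharide-binding protein of the acute phase, was at 5.93 and 7.47 CPM in RH/+, 11.4 and 12.7 in RH/RQ vehicle and 14.8 and 12.0 in treated hearts. It rose over RH/+ in both RH/RQ groups, by 0.77 (SE 0.16, limma adjusted p = 0.00330) and 0.91 (SE 0.16, adjusted p = 0.00115), and the treated and vehicle RH/RQ libraries overlapped. The former did not pass without RH/+ replicate 1 (0.63, adjusted p = 0.0997) or RH/RQ vehicle replicate 2 (0.70, adjusted p = 0.0522). Pim1, a kinase gene induced by STAT signalling, was at 24.4 and 27.8 CPM in RH/+, 17.8 and 15.8 in RH/RQ vehicle and 26.3 and 22.3 in treated hearts. Pim1 was lowest in RH/RQ vehicle hearts, where Serpina3n was highest, but its treated and RH/+ libraries overlapped (-0.10, limma adjusted p = 0.767). Pim1 fell by 0.60 between the vehicle groups (SE 0.13, adjusted p = 0.00438) and was 0.51 higher with treatment than in RH/RQ vehicle hearts (SE 0.13, adjusted p = 0.0332). The former did not pass without RH/+ replicate 2 (adjusted p = 0.0962) or RH/RQ vehicle replicate 2 (adjusted p = 0.0725), nor the latter without RH/RQ vehicle replicate 2 (adjusted p = 0.378), without treated replicate 1 (adjusted p = 0.265) or with a pseudocount of 5 (adjusted p = 0.0589).

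Myc, the growth-promoting transcription factor, was at 2.23 and 2.53 CPM in RH/+, 4.35 and 4.33 in RH/RQ vehicle and 4.27 and 3.51 in treated hearts. It rose by 0.66 between the vehicle groups (SE 0.18, limma adjusted p = 0.0286), a call lost with each of those 4 libraries left out in turn (adjusted p between 0.0868 and 0.259) and in DESeq2 (adjusted p = 0.0526). Ccl2, the monocyte-attracting chemokine, was at 3.81 and 3.56 CPM in RH/+, 4.82 and 3.43 in RH/RQ vehicle and 1.30 and 1.95 in treated hearts. It fell by 0.96 against RH/RQ vehicle (SE 0.19, adjusted p = 0.00545) and by 0.85 against RH/+ (SE 0.19, adjusted p = 0.0134). Neither fall passed without treated replicate 1 (-0.78, adjusted p = 0.0947, and -0.67, adjusted p = 0.155), nor the first without RH/RQ vehicle replicate 1 (-0.77, adjusted p = 0.0952) or the second without RH/+ replicate 1 (-0.81, adjusted p = 0.136). The comparisons share libraries, so the courses of these genes over the 3 comparisons are not independent of each other.

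**Figure D4:**
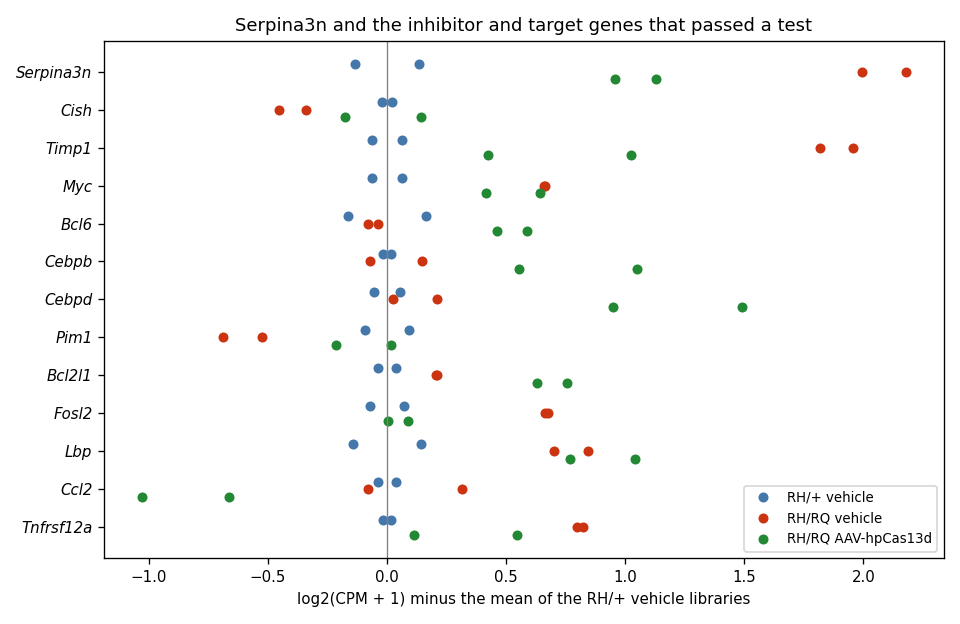
Log2(CPM + 1) minus the mean of the RH/+ vehicle libraries (x axis) for Serpina3n and the 12 listed inhibitor and target genes that passed the test in at least 1 comparison; each point is a library. Timp1, Fosl2 and Tnfrsf12a are highest in RH/RQ vehicle libraries, and Cebpd, Cebpb, Bcl6 and Bcl2l1 in treated libraries.

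Serpina3n belongs to a cluster of near relatives on chromosome 12, whose reads could be mixed with its own. Of 10 relatives listed 7 were found and 3 tested, and together they held 1.15 to 2.0 CPM in RH/+, 2.02 to 2.04 CPM in RH/RQ vehicle and 1.11 to 1.21 CPM in treated hearts, far below Serpina3n. The highest, Serpina3g, had a mean of 0.802 CPM. Of the 2015 windows of 50 bases in the 2064-base Serpina3n transcript, 6.75% occur in a protein-coding transcript of a listed relative. Serpina3g shared most at 2.53%, and the pseudogene Serpina3h was left out of this search. Serpina3i, named after its values were seen, was at 0.0788 and 0.0251 CPM in RH/+, 0.568 and 0.516 in RH/RQ vehicle and 0.165 and 0.185 in treated hearts, and it shared 0 of those windows. It rose by 0.55 between the vehicle groups (SE 0.16, limma adjusted p = 0.0397), from 1 to 29 reads per library. Serpina3c and Serpina3m, also named after their values were seen, shared 1.24% and 0.893% of the windows. Serpina3c was at 0.0263 and 0.175 CPM in RH/+, 0.353 and 0.696 in RH/RQ vehicle and 0.0276 and 0.0791 in treated hearts. Serpina3m was at 0.0980 and 0.232 CPM in RH/RQ vehicle and at 0 in RH/+ and treated hearts. Serpina3b, Serpina3f and Serpina3g had their highest mean in RH/+ hearts, and Serpina3h overlapped in all groups. The part of shared reads was not tested.

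Among the 10119 tested genes that averaged 5 CPM or more, the 5 most alike to Serpina3n by Pearson's r of log2(CPM + 1) over the 6 libraries were Snx10 (r = 0.9998), Nlrc3 (0.993), Rcan1 (0.993), Ltbp2 (0.993) and Stard9 (0.992). With 6 libraries in 3 groups, such values mainly reflect the order of the groups and are given as a description. Snx10, a sorting nexin of endosomes, had group means of 13.0, 19.3 and 15.8 CPM, and Rcan1, a regulator and target of calcineurin, 98.5, 174 and 126 CPM. Ltbp2, a matrix protein of the latent TGF-beta binding family, had 2.48, 15.7 and 6.66 CPM, and Nlrc3, a member of the NOD-like receptor family, 4.87, 15.8 and 9.69 CPM. Stard9, a kinesin, had 33.2, 42.7 and 38.6 CPM. The 3 least alike were Reep5, a shaper of the endoplasmic reticulum (r = -0.992, means of 367, 293 and 330 CPM), Pcp4l1 (r = -0.992, 269, 166 and 204 CPM) and Ces1d, a lipid-hydrolysing carboxylesterase (r = -0.991, 158, 108 and 130 CPM). Of the pathway's own genes Stat3 had r = 0.934 and ranked 195, Osmr had 0.737, and Lifr had -0.823.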

How the data were processed

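The 6 libraries hold mouse heart RNA captured on poly-T beads. The submitters' processing notes name HISAT2, HTSeq, DESeq2 and mm10; versions and strand setting are not given in the sources used here. The authors deposited 3 full tables of CPM, and per the file headers these also hold a mean signal over normalised counts, a log2 fold change with its error, a test score and p-values. The 3 tables were joined by gene, with 0 sample columns left over. All CPM values were whole multiples of 1 read (100%, tolerance 0.001), so whole reads were recovered. Because the deposited unit is CPM, the test was limma 3.58.1 in R 4.3.3 (trend, two-sided) on log2(CPM + 1), a scale on which folds of low genes come out too small. The fit held 3 group means and all 6 libraries. Genes passed filterByExpr at a minimum count of 10 (16804 of 29385), and calls were made at a Benjamini-Hochberg adjusted p under 0.05 over all of them. On the recovered reads edgeR 4.0.16 called 918, 381 and 411 genes and DESeq2 1.42.0 called 906, 363 and 418, where limma called 838, 344 and 480. The 2 libraries of a group differed beyond sampling noise (mean chi-square per gene 12.4, 16.6 and 23.7). That does not show whether they came from separate animals. Each library was counted once. The tests were checked on simulated reads.

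The members and gene lists were chosen with earlier results of these data known. Named genes were the 8 members, every listed pathway gene that passed in at least 1 comparison, Serpina3 relatives averaging 1 CPM or more, and the 5 most and 3 least alike to Serpina3n; others are marked where named. Some genes that this rule would name are not reported here, though counts over the lists include them. Positions are from GENCODE M21 on GRCm38, and promoters from RefSeq on GRCm38.p6. Alternatives covered other tests, TMM and RLE factors, CPM over nuclear genes, pseudocounts, filters, the 4 libraries compared, a replicate block and leaving out each library.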

Additional observations from a re-analysis of the deposited data

How the results depend on the processing

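For RH/RQ vehicle against RH/+ hearts the count of called members was 1 and became 2, with Stat3 added, for CPM over nuclear genes, the 4 libraries compared and the replicate block; leaving out each library gave 1 to 2. The counts for treated against RH/RQ vehicle and against RH/+ were 1 with each library left out in turn, and 0 without the filter on low counts. Without that filter the Serpina3n differences of -1.04 and 1.04 no longer passed (nothing is read from that test, given how the gene was chosen), and called pathway genes went from 8, 10 and 8 to 0, 0 and 0; the cause was not tested. Leaving out each library put those pathway counts at 4 to 10, 4 to 11 and 4 to 9, and the Serpina3n differences at 1.95 to 2.22, -1.13 to -0.95 and 0.91 to 1.18. No called difference of Serpina3n or of a pathway gene turned its sign under any alternative run. With libraries matched between groups by the first digit of their names, the correlations of deviations were 0.18, -0.03 and 0.09 over 13489 genes. With 2 libraries per group these values cannot exclude a pairing. The replicate block gave 11, 12 and 9 called pathway genes. TMM and RLE factors moved the median of all genes by less than 0.1 on the log2 scale. With TMM factors it went from 0.04, 0.04 and 0.08 to -0.0002, -0.003 and -0.002. A difference as small as this shift therefore depends on the scaling. Depth limits 5 of 11 ligands, with 0 to 13 reads per library, which were not tested.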
